A study of Homo sapiens with 6 samples.

Results

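The genes described here encode ligands, receptors, SMAD proteins and secreted antagonists of the transforming growth factor beta (TGF-beta) and bone morphogenetic protein (BMP) pathways. They were taken as the protein-coding genes whose symbol begins with BMP, TGFB, SMAD, ACVR, INHB, or GDF followed by a digit, together with NOG, GREM1, CHRD, FST, INHA and NODAL. GDF15 was left out of this definition. It took in 59 of the 60664 genes of the count table, and no measured value entered the choice. A few genes carry the prefixes without being core pathway components, such as the kinase BMP2K, the extracellular matrix protein TGFBI and the procollagen protease BMP1.

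The libraries came from polyA RNA of U-2 OS, a human bone tumour (osteosarcoma) line of mesenchymal origin that the labels describe as polyploid. Cells had been transiently transfected either with a control siRNA (siCTRL, 3 libraries) or with siRNA against SFPQ (siSFPQ, 3 libraries) at 30 nM, and they carried no other named modification. SFPQ is a nuclear RNA- and DNA-binding protein with roles in transcription, splicing and genome maintenance. The comparison addresses which transcripts change in level when SFPQ is depleted.

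TGF-beta family ligands are secreted dimers that bring together type I and type II receptors, which are serine/threonine kinases at the cell surface. The type II receptor phosphorylates the type I receptor, which then phosphorylates receptor-regulated SMADs: SMAD2 and SMAD3 downstream of TGF-beta and activin, and SMAD1, SMAD5 and SMAD9 downstream of BMPs. These enter the nucleus with SMAD4, while SMAD6 and SMAD7 inhibit the pathway, and noggin, chordin, gremlin and follistatin bind ligands outside the cell. In bone, BMPs are known for driving osteoblast differentiation, and TGF-beta is stored in the bone matrix.

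Library totals ranged from 46142855 to 47119203 counts in siCTRL and from 43469321 to 45543610 in siSFPQ. SFPQ itself had 22338, 23139 and 21753 counts in siCTRL and 3140, 3863 and 3151 in siSFPQ, a log2 fold change of -2.73 (SE 0.05, adjusted p = 6.34e-30). Of 8 mesenchymal and osteoblast markers, 7 averaged 1 CPM or more (CPM is a count scaled to a fixed library size) and COL1A2 lay below it. The summed level of the 8 was 7890 to 8480 CPM in siCTRL and 6810 to 6930 CPM in siSFPQ. The summed level of 6 epithelial markers was 13.7 to 17.2 CPM in siCTRL and 34.7 to 37.5 CPM in siSFPQ, that of 6 haematopoietic markers 5.58 to 7.01 and 12.7 to 13.7 CPM, and that of 5 endothelial markers 4.69 to 6.16 and 7.05 to 7.6 CPM. The sums hide members that differ: CLDN4 had 8.15, 9.6 and 8.83 CPM in siCTRL and 30.5, 27.8 and 31.1 in siSFPQ, while EPCAM had a log2 fold change of -0.18 (adjusted p = 0.242). LCP1 rose by 1.19 on the log2 scale, and PTPRC, the defining leukocyte marker, fell by 1.61 at under 1 CPM (adjusted p = 0.00147). ESRP1, KRT19, GRHL2, PTPRC, CD3E, CD14, CSF1R, PECAM1, CDH5, KDR and TIE1 had means under 1 CPM, and no marker was at 0 in all libraries. The part of other cell types in the results below was not tested, and in bulk RNA fewer cells of a type cannot be told apart from less RNA per cell.

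The BMP receptors BMPR2 and BMPR1B showed the largest falls among the pathway genes that averaged 1 CPM or more, and the ligand BMP4, the receptor BMPR1A and the antagonists FST and NOG fell with them. SMAD6, an inhibitor of BMP signalling, and the matrix protein TGFBI rose, with log2 fold changes of 1.00 and 0.96. The log2 fold changes of TGFB1, TGFB2, TGFB3, TGFBR1 and TGFBR2 lay between -0.39 and 0.15. In the statistics that follow, a gene "rose" or "fell" when its adjusted p in edgeR's quasi-likelihood test was under 0.05 over all 29022 genes tested, and it was "called" higher or lower when its log2 fold change (siSFPQ over siCTRL) was also above 1.5 or below -1.5. Counts per library are given as deposited, and means with their SD (n = 3 libraries per condition) are counts normalized for library size and composition.

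Of the 59 genes, 52 had at least 10 counts over the 6 libraries and were tested. The other 7 (BMP10, BMP15, GDF1, GDF2, GDF3, GDF6 and GDF10) had between 0 and 6 counts in all 6 libraries together. Among those tested, 16 rose (30.8%), 21 fell (40.4%) and 15 did neither. Over all genes tested, 22.4% rose and 22.1% fell. Many of those are weakly expressed, and among the 12958 protein-coding genes with a mean of at least 1 CPM the shares were 31.3% and 36.5%. The share of pathway genes that moved was therefore close to that of other expressed protein-coding genes. With normalization to library size alone, 20 rose and 18 fell in place of 16 and 21. The share of all genes in that fit is not given here, so these counts are not read against other genes. Over the alternatives together, 4967 to 7622 of all genes rose and 5121 to 6517 fell, with different numbers of genes tested. The median log2 fold change was -0.04 over the tested pathway genes and 0.02 over all genes tested.

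INHA and ACVRL1 were called higher, 2 of 52, where 5.54% of all genes tested were called higher. BMPR2, BMPR1B, INHBB and BMP3 were called lower, 4 of 52, where 4.77% of all genes tested were. Of these 6, BMPR2 and BMPR1B reached 1 CPM in a condition and the other 4 did not. The normalized counts of siCTRL and siSFPQ did not overlap for 39 of the 52 genes, against 52.3% of all genes tested and 72.8% of the protein-coding genes with a mean of at least 1 CPM.

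**Figure D1:**
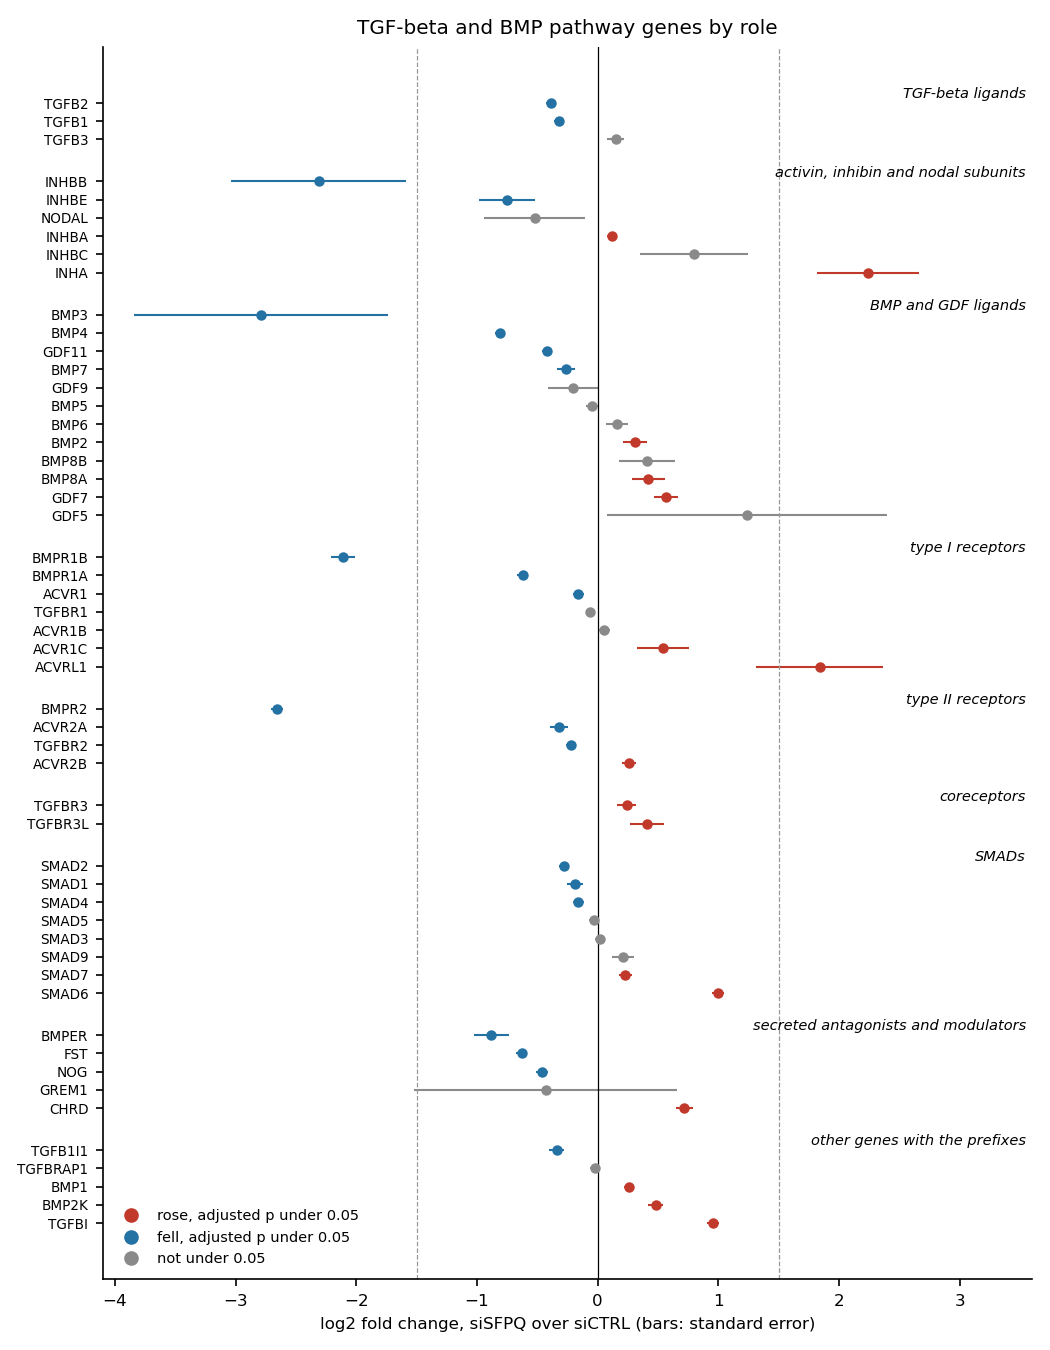
Log2 fold change (siSFPQ over siCTRL, x axis) of the 52 tested pathway genes, grouped by role, with bars for the standard error and dashed lines at 1.5 and -1.5. BMPR2 (-2.66) and BMPR1B (-2.11) lie beyond the left line with short bars, while INHBB, BMP3, INHA and ACVRL1 lie beyond a line with long bars.

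The type II receptors showed the most marked single change. BMPR2, the type II receptor dedicated to BMPs, had 9324, 10098 and 9109 counts in the siCTRL libraries and 1434, 1680 and 1422 in the siSFPQ libraries. Every siSFPQ library was far below every siCTRL library. Its log2 fold change was -2.66 (SE 0.05, adjusted p = 1.62e-29), from 9524 ± 508 to 1508 ± 123 normalized counts, or 6.31-fold lower. TGFBR2, the type II receptor for TGF-beta, had 9637, 10269 and 9143 counts in siCTRL and 7952, 8469 and 8594 in siSFPQ and fell by 0.22 on the log2 scale (SE 0.04, adjusted p = 2.15e-05). The activin receptor ACVR2A fell (log2 fold change -0.32) and its relative ACVR2B rose (0.26).

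Levels of different genes can be set side by side only per length of exon. The length used merged all annotated exons of a gene, whichever of them were transcribed in these cells. Ranks and shares between genes depend on that choice. On that scale BMPR2 went from 16.7 ± 0.887 CPM per kb to 2.64 ± 0.216, TGFBR2 from 30.9 ± 1.76 to 26.6 ± 0.449, ACVR2A from 2.57 ± 0.17 to 2.05 ± 0.0282 and ACVR2B from 2.43 ± 0.21 to 2.92 ± 0.0609. BMPR2 thus stood clearly second among the 4 type II receptors in siCTRL, and in siSFPQ its level was within the range of the 2 activin receptors. As a share of the summed level of the 4, BMPR2 made up 31.2%, 31.9% and 31.9% in the siCTRL libraries and 7.67%, 8.38% and 7.12% in the siSFPQ libraries. The share of TGFBR2 went from 58.8% ± 0.397 to 77.7% ± 0.758. In the order of all 59 genes by level per kb, BMPR2 was in place 8 in siCTRL and place 27 in siSFPQ.

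Among the 7 type I receptors, those for BMPs were the ones that fell furthest. BMPR1B had 620, 636 and 620 counts in siCTRL and 124, 152 and 159 in siSFPQ. The groups were well apart, with a log2 fold change of -2.11 (SE 0.10, adjusted p = 1.76e-18) and a 4.33-fold lower level. BMPR1A, the more abundant of the BMP type I receptors, had 3597, 3687 and 3833 counts in siCTRL and 2258, 2437 and 2551 in siSFPQ. It fell by 0.62 on the log2 scale (SE 0.04, adjusted p = 6.43e-14), 1.54-fold, again without overlap. ACVR1, which also binds BMPs, fell slightly, from 2284, 2294 and 2256 counts to 1951, 2061 and 2120 (log2 fold change -0.16, SE 0.05, adjusted p = 0.00436). With normalization to library size alone its log2 fold change was -0.10 and its adjusted p 0.0765.

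The type I receptors of TGF-beta and activin moved little. TGFBR1, the TGF-beta type I receptor, had 5019, 5094 and 5078 counts in siCTRL and 4667, 5057 and 4937 in siSFPQ (log2 fold change -0.06, adjusted p = 0.25), and the activin receptor ACVR1B had a log2 fold change of 0.05 (adjusted p = 0.403). ACVRL1, a receptor for circulating BMPs known mainly from endothelium, was barely detected, with 6, 1 and 12 counts in siCTRL and 22, 22 and 25 in siSFPQ. Its summed counts were 19 and 69, a ratio of 3.62 (95% exact interval 2.15 to 6.37, counting error only), and its log2 fold change was 1.84 (SE 0.53, adjusted p = 0.00465). Without siCTRL replicate 2, the library with 1 count, the log2 fold change was 1.34 with an adjusted p of 0.0268, and ACVRL1 was no longer called. ACVR1C, which transmits nodal and some GDF signals, had 39, 64 and 69 counts in siCTRL and 90, 85 and 75 in siSFPQ, a log2 fold change of 0.54 (SE 0.22, adjusted p = 0.0425). This value was 0.32 without siCTRL replicate 1 (adjusted p = 0.201), 0.47 without siSFPQ replicate 1 (adjusted p = 0.157) and 0.52 without siSFPQ replicate 2 (adjusted p = 0.102), and with DESeq2 the adjusted p was 0.0994.

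Per kb of exon, TGFBR1 was the leading type I receptor in both conditions, with 38.5% ± 0.269 of the summed level of the 7 in siCTRL and 43.2% ± 0.679 in siSFPQ. BMPR1A and BMPR1B together with ACVR1 are the receptors that pass on BMP signals in most cells. The share of BMPR1A went from 22.3% ± 0.484 to 16.9% ± 0.474 and that of BMPR1B from 5.79% ± 0.0892 to 1.56% ± 0.145, while the share of ACVR1 was 14.1% ± 0.266 and 14.7% ± 0.16. ACVR1B, which did not pass the test itself, made up 18.8% ± 0.228 in siCTRL and 22.8% ± 0.581 in siSFPQ.

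**Figure D2:**
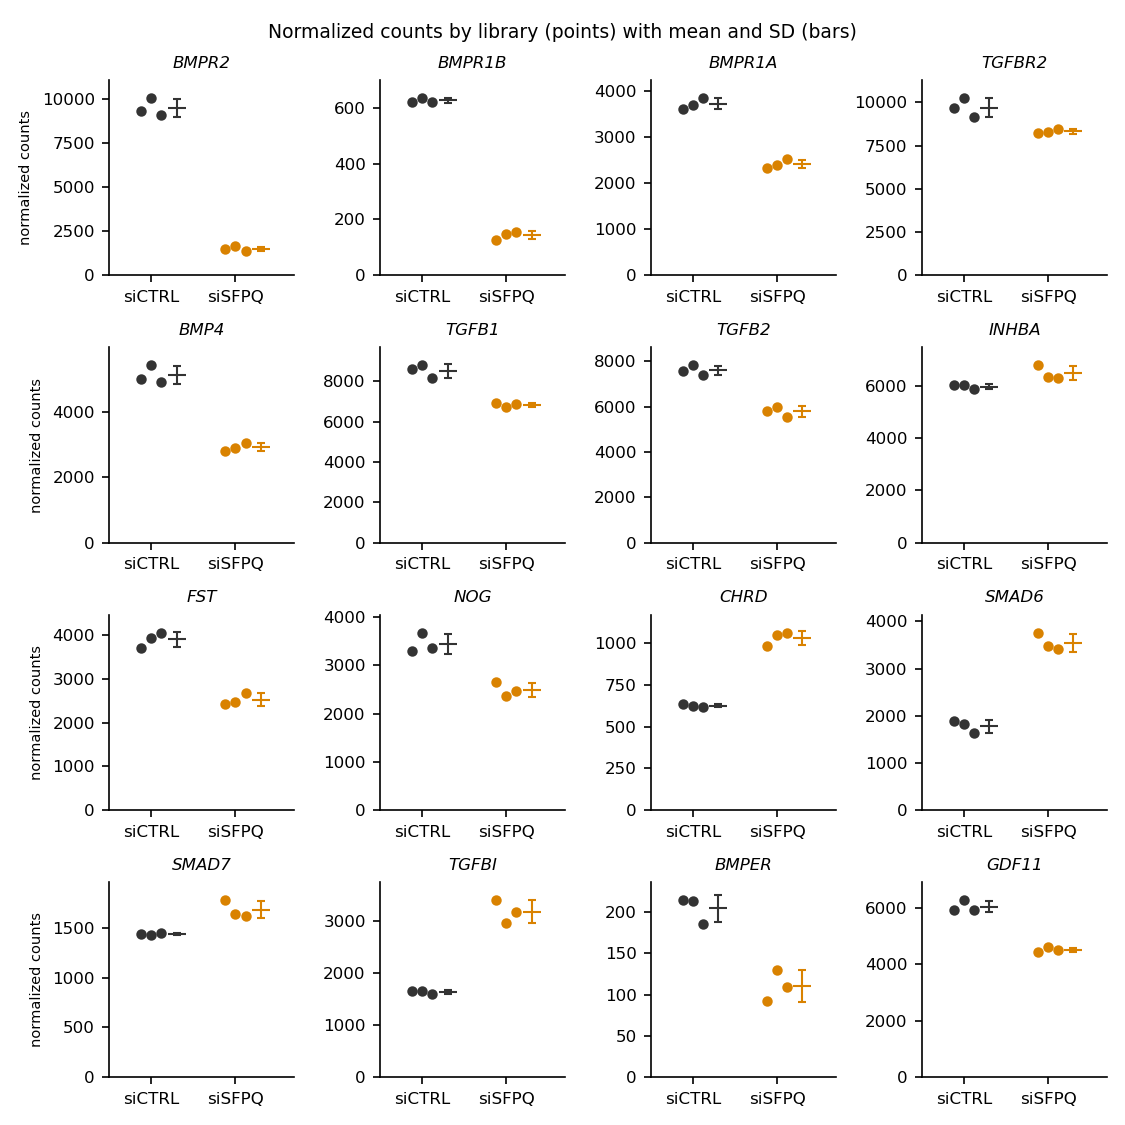
Normalized counts (y axes, from 0) in the 3 siCTRL and 3 siSFPQ libraries for 16 of the pathway genes, each point a library, with the mean and SD beside the points. BMPR2, BMPR1B, BMPR1A, BMP4 and FST lie lower in every siSFPQ library, and SMAD6, TGFBI and CHRD lie higher.

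BMPR2 and BMPR1B are both long genes whose promoters lie far from most of their sequence. BMPR2 (ENSG00000204217) is at chr2:202376327-202567751 on the plus strand of GRCh38 and spans 191 kb, and BMPR1B (ENSG00000138696) is at chr4:94757955-95158448 on the plus strand and spans 400 kb. Their promoters are shown because they open the genes with the most marked fall. Each sequence below runs 5′ to 3′ from 250 bases before to 50 bases after the transcription start in RefSeq (GRCh38.p14) and is in lower case, with capitals for any match to GTCTAGAC, the palindromic core of the SMAD-binding element, or to GGCGCC, a GC-rich letter string that SMAD MH1 domains can bind. The BMPR2 window is chr2:202376077-202376376 and the BMPR1B window, 1 of 3 listed promoters of that gene, is chr4:94757705-94758004.
BMPR2: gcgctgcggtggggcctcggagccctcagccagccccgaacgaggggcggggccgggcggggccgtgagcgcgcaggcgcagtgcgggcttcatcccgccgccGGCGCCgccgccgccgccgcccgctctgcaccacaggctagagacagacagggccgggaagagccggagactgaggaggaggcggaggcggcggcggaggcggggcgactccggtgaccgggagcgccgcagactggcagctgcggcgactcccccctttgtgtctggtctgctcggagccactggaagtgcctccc
BMPR1B: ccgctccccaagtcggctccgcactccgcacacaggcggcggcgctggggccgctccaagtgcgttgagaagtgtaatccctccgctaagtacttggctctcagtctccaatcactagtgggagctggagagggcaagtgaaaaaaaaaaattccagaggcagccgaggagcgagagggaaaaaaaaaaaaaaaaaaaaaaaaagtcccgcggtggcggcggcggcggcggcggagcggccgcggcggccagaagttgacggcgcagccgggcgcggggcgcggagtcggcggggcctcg
The BMPR2 window holds 1 GGCGCC, beginning 147 bases before the start, and no GTCTAGAC, and the BMPR1B window holds neither. Both words are their own reverse complement, and they do not overlap each other in these windows. The GC content is 76.7% in the BMPR2 window and 63.3% in the BMPR1B window.

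The neighbours of these receptor genes, picked after their values were seen, did not all move with them. NOP58, 72.7 kb from BMPR2, rose from 4144, 4171 and 4559 counts to 5649, 5925 and 6001 (log2 fold change 0.44), and FAM117B on its other side, 67.2 kb away, rose by 0.23. Beyond FAM117B, ICA1L had a log2 fold change of -0.93. UNC5C, which encodes a netrin receptor and lies 4.06 kb from BMPR1B, fell from 572, 653 and 591 counts to 62, 57 and 53 (log2 fold change -3.40, SE 0.12, adjusted p = 6.54e-22). PDLIM5, 89.7 kb to the other side of BMPR1B, fell by 0.41 on the log2 scale.

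The coreceptors both rose modestly. TGFBR3 (betaglycan), which presents TGF-beta 2 and binds inhibin, had 573, 502 and 515 counts in siCTRL and 586, 637 and 666 in siSFPQ (log2 fold change 0.24, SE 0.08, adjusted p = 0.0124). Without siCTRL replicate 2 the log2 fold change was 0.20 and the adjusted p 0.0529, and without siSFPQ replicate 3 they were 0.22 and 0.0629. TGFBR3L, a related membrane protein, had a log2 fold change of 0.41 (adjusted p = 0.0153), and its normalized counts overlapped between the conditions.

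The most abundant ligand per kb of exon was TGFB1, and it fell. TGFB1 had 8574, 8803 and 8127 counts in siCTRL and 6702, 6864 and 6970 in siSFPQ, a log2 fold change of -0.32 (SE 0.04, adjusted p = 1.71e-08). TGFB2 had 7540, 7831 and 7384 counts in siCTRL and 5639, 6130 and 5628 in siSFPQ, a log2 fold change of -0.39 (SE 0.04, adjusted p = 3.04e-10). For both of these ligands all siSFPQ libraries were lower than all siCTRL libraries. TGFB3, the least abundant of the 3, had 669, 698 and 674 counts in siCTRL and 757, 791 and 730 in siSFPQ (log2 fold change 0.15, adjusted p = 0.0808). Its adjusted p was 0.0123 with normalization to library size alone and 0.0348 over protein-coding genes only. TGFB1 made up 65.3% ± 0.407 of the summed level of the 3 per kb in siCTRL and 65.5% ± 1.13 in siSFPQ, and TGFB3 went from 3.27% ± 0.0834 to 4.54% ± 0.157.

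Among the BMP and GDF ligands, 3 of the 12 tested rose (25.0%), 4 fell (33.3%) and 5 did neither. Of the protein-coding genes averaging 1 CPM or more, 31.3% rose and 36.5% fell. BMP4, an inducer of bone and the leading BMP in these cells, had 5006, 5432 and 4916 counts in siCTRL and 2721, 2963 and 3092 in siSFPQ. The groups did not overlap, and BMP4 fell by 0.81 on the log2 scale (SE 0.04, adjusted p = 7.27e-17), from 36.2 ± 1.9 to 20.6 ± 0.867 CPM per kb. BMP4 made up 61.8% ± 1.1 of the summed level of the 10 BMP ligands per kb in siCTRL and 48.0% ± 1.63 in siSFPQ. BMP5, the next most abundant, had 2368, 2591 and 2615 counts in siCTRL and 2297, 2661 and 2371 in siSFPQ (log2 fold change -0.05, adjusted p = 0.425), and its share went from 23.8% ± 1.15 to 31.3% ± 1.46.

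BMP2, the ligand used clinically to promote bone formation, moved the other way from BMP4. It had 302, 304 and 270 counts in siCTRL and 367, 344 and 378 in siSFPQ, a log2 fold change of 0.31 (SE 0.10, adjusted p = 0.0112). Without siCTRL replicate 3 its log2 fold change was 0.26 and its adjusted p 0.0521. BMP7 had 792, 906 and 803 counts in siCTRL and 659, 746 and 688 in siSFPQ, a log2 fold change of -0.26 (SE 0.07, adjusted p = 0.00335). GDF11, a relative of myostatin, fell by 0.42 (adjusted p = 6.49e-11), and GDF7, a BMP known from the developing nervous system and tendon, rose from 257, 249 and 260 counts to 384, 387 and 372 (log2 fold change 0.57, SE 0.10, adjusted p = 1.03e-05).

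The remaining ligands of this group were scarce or moved little. BMP8A had a log2 fold change of 0.42 (adjusted p = 0.0103) and its near-identical paralogue BMP8B one of 0.41 (adjusted p = 0.159), and reads could have been divided between them in counting, so both are uncertain. BMP3, which acts against osteogenic BMPs, had 12, 2 and 9 counts in siCTRL and 2, 0 and 1 in siSFPQ. These groups overlapped, since 2 counts occurred in both, and the ratio of the summed counts (23 to 3) was 7.69 (95% exact interval 2.33 to 40.0). Its fitted log2 fold change was -2.79 (SE 1.05, adjusted p = 0.0289). The call was lost without siCTRL replicate 1 (adjusted p = 0.0979), siCTRL replicate 3 (0.0698), siSFPQ replicate 2 (0.114) or siSFPQ replicate 3 (0.0855), and with DESeq2 (0.0506), and BMP3 was not tested under the stricter filter of filterByExpr. BMP6 (adjusted p = 0.156), GDF9 (0.483) and GDF5 (0.424) did not pass the test. GDF1 was at 0 in every library, and all of its exon bases are shared on the same strand with CERS1, so its 0 cannot be read as absence.

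**Figure D3:**
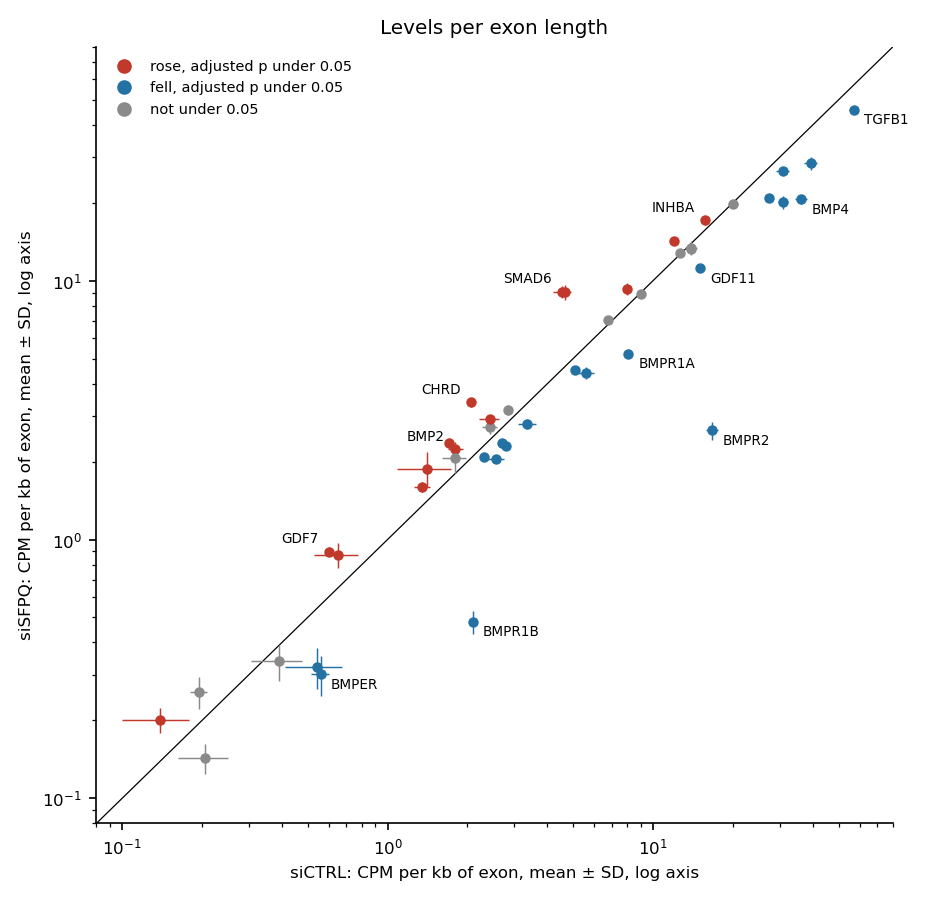
Mean level per kb of exon in siCTRL (x axis) and siSFPQ (y axis), both log axes in CPM per kb with bars for the SD over 3 libraries, for pathway genes at 0.1 or more in both conditions. BMPR2 lies far below the diagonal, at 16.7 against 2.64, and BMPR1B at 2.09 against 0.481, while most points lie close to it.

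The activin and inhibin subunits were split between 1 abundant gene and 4 scarce ones, with the related ligand NODAL also scarce. INHBA, whose product forms activin A, had 6000, 6018 and 5853 counts in siCTRL and 6577, 6471 and 6393 in siSFPQ. The rise was small, a log2 fold change of 0.12 (SE 0.04, adjusted p = 0.0137), and without siSFPQ replicate 1 it was 0.10 with an adjusted p of 0.0786. INHA, the inhibin alpha subunit that pairs with a beta subunit to oppose activin, had 9, 7 and 6 counts in siCTRL and 49, 26 and 30 in siSFPQ. The groups did not overlap, and the summed counts of 22 and 105 gave a ratio of 4.76 (95% exact interval 2.98 to 7.91), with a fitted log2 fold change of 2.24 (SE 0.42, adjusted p = 4.1e-05).

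INHBB, the subunit of activin B, had 12, 13 and 11 counts in siCTRL and 1, 3 and 3 in siSFPQ. Its summed counts of 36 and 7 gave a ratio of 5.15 (95% exact interval 2.26 to 13.7), and its fitted log2 fold change was -2.31 (SE 0.73, adjusted p = 0.00926). Without siSFPQ replicate 1 the log2 fold change was -1.97 and the adjusted p 0.0511. INHBC and INHBE, which are expressed chiefly in liver, lie 0.261 kb apart on chromosome 12. INHBE had 60, 96 and 71 counts in siCTRL and 36, 45 and 54 in siSFPQ (log2 fold change -0.75, SE 0.23, adjusted p = 0.00719), and INHBC had a log2 fold change of 0.80 (adjusted p = 0.156). For INHBE the adjusted p was 0.0779 without siCTRL replicate 2 and 0.0612 without siSFPQ replicate 1. NODAL had 12 to 23 counts per library and an adjusted p of 0.336.

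The SMADs were all expressed, at means of 1.79 CPM per kb or more in siCTRL, and SMAD6 changed most. SMAD6, which blocks BMP type I receptors and SMAD1, had 1886, 1818 and 1621 counts in siCTRL and 3650, 3555 and 3453 in siSFPQ. All siSFPQ libraries lay far above all siCTRL libraries, from 1778 ± 137 to 3550 ± 190 normalized counts, a log2 fold change of 1.00 (SE 0.05, adjusted p = 1.58e-17). SMAD7, which inhibits both branches, rose less, from 1438, 1423 and 1440 counts to 1724, 1674 and 1644 (log2 fold change 0.23, SE 0.05, adjusted p = 0.000657). Per kb of exon, SMAD6 made up 36.3% ± 1.88 of the summed level of these 2 in siCTRL and 49.4% ± 0.142 in siSFPQ.

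Of the receptor-regulated SMADs, SMAD2 fell the furthest. SMAD2, a carrier of TGF-beta and activin signals, had 4462, 4680 and 4795 counts in siCTRL and 3815, 3892 and 3799 in siSFPQ (log2 fold change -0.28, SE 0.04, adjusted p = 6.84e-07). SMAD3, its partner in the same branch, had 5909, 5772 and 5654 counts in siCTRL and 5732, 6050 and 5863 in siSFPQ, with a log2 fold change of 0.02 (SE 0.04, adjusted p = 0.706) and overlapping groups. In the BMP branch SMAD1 had 880, 903 and 845 counts in siCTRL and 713, 806 and 786 in siSFPQ (log2 fold change -0.19, SE 0.07, adjusted p = 0.0184).

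SMAD1 missed the threshold with normalization to library size alone (log2 fold change -0.13, adjusted p = 0.115), and without siCTRL replicate 2 (adjusted p = 0.059), siSFPQ replicate 1 (0.125) or siSFPQ replicate 3 (0.0532). SMAD5, the more abundant BMP SMAD per kb, had 3670, 3763 and 3750 counts in siCTRL and 3525, 3693 and 3777 in siSFPQ (log2 fold change -0.03, adjusted p = 0.603), and SMAD9 had a log2 fold change of 0.21 (adjusted p = 0.0662). SMAD4, the common partner, had 2048, 2064 and 2105 counts in siCTRL and 1785, 1932 and 1881 in siSFPQ. It fell by 0.16 (SE 0.05, adjusted p = 0.00703), with -0.09 and an adjusted p of 0.105 under normalization to library size alone and -0.13 and 0.0536 without siSFPQ replicate 1.

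SMAD6 (ENSG00000137834) is at chr15:66702236-66782849 on the plus strand, 281 kb from SMAD3 on the same strand, and the pair had log2 fold changes of 1.00 and 0.02. Its promoter is shown because SMAD6 rose the most of the abundant pathway genes, beside that of TGFBI (ENSG00000120708, chr5:136028988-136063818, plus strand), which rose next. The windows are chr15:66701986-66702285 and chr5:136028738-136029037, with capitals as above.
SMAD6: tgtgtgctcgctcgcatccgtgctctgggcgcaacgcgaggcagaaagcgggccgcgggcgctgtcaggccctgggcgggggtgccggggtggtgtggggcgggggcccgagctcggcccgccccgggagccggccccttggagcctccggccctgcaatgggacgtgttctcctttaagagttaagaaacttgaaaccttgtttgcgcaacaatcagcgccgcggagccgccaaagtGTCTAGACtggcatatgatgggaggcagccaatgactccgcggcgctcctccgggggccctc
TGFBI: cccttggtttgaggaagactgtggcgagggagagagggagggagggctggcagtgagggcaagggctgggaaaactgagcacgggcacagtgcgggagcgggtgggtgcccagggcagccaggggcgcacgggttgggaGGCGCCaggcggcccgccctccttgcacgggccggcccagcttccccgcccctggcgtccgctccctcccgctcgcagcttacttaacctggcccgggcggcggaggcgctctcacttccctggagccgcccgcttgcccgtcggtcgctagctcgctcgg
The SMAD6 window holds GTCTAGAC beginning 12 bases before the start, and the TGFBI window holds GGCGCC beginning 111 bases before it. Over 35116 RefSeq promoter windows of this length, 71 (0.202%) held GTCTAGAC and 6748 (19.2%) held GGCGCC. Of the 59 pathway genes, 50 had at least 1 entry among these windows, 85 windows in all. SMAD6 had the only GTCTAGAC among the 85, and 23 of them (27.1%) held GGCGCC, among them windows of genes that rose (CHRD, GDF7, TGFBI), fell (BMPR2, BMP4, BMPER, SMAD1, SMAD2, SMAD4) and did neither (SMAD3, SMAD5, TGFBR1). These matches describe the letters of the windows and are not evidence of binding.

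The secreted antagonists moved in both directions. NOG (noggin), which traps BMP2, BMP4 and BMP7, had 3287, 3679 and 3349 counts in siCTRL and 2571, 2414 and 2510 in siSFPQ (log2 fold change -0.46, SE 0.05, adjusted p = 7.04e-10). FST (follistatin), which neutralizes activins, had 3707, 3933 and 4050 counts in siCTRL and 2343, 2535 and 2724 in siSFPQ (log2 fold change -0.63, SE 0.05, adjusted p = 1.76e-13). Both were among the 6 most abundant pathway genes per kb of exon in each condition. CHRD (chordin), another BMP trap, rose from 631, 626 and 618 counts to 955, 1071 and 1078 (log2 fold change 0.72, SE 0.07, adjusted p = 6.35e-11).

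BMPER, a secreted protein that can promote or restrain BMP signalling, had 214, 213 and 185 counts in siCTRL and 89, 133 and 111 in siSFPQ, a log2 fold change of -0.88 (SE 0.14, adjusted p = 4.03e-06). GREM1 (gremlin) had 0, 7 and 4 counts in siCTRL and 6, 1 and 1 in siSFPQ, with overlapping groups and a fitted log2 fold change of -0.43 (SE 1.09, adjusted p = 0.795). Per kb of exon, NOG went from 39.3 ± 2.36 to 28.5 ± 1.67 and FST from 31.0 ± 1.39 to 20.1 ± 1.12, against 2.06 ± 0.0207 and 3.4 ± 0.137 for CHRD. The rise of CHRD was therefore small in level beside the falls of NOG and FST.

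Of the 5 genes that share the prefixes without being core components, 3 rose (60.0%). Among protein-coding genes averaging 1 CPM or more, 31.3% rose. TGFBI, an extracellular matrix protein named for its induction by TGF-beta, had 1650, 1663 and 1602 counts in siCTRL and 3304, 3026 and 3228 in siSFPQ. The groups were far apart, with a log2 fold change of 0.96 (SE 0.05, adjusted p = 2.24e-17). BMP2K rose (log2 fold change 0.48, adjusted p = 1.46e-07), but 5639 of its exon bases are shared with PAQR3 on the opposite strand, which had a log2 fold change of 0.50. Reads of the 2 genes cannot be told apart without strand. The libraries were made with a stranded mRNA kit, but the strand setting of the counting is not given in the sources used here. BMP4 and INHBE share fewer exon bases, 506 and 499, with antisense non-coding genes that also fell (log2 fold changes -1.18 and -0.76). BMP1 had a log2 fold change of 0.26 (adjusted p = 2.45e-06), the focal adhesion protein TGFB1I1 one of -0.34 (adjusted p = 2.24e-05) and the receptor-associated protein TGFBRAP1 one of -0.02 (adjusted p = 0.707).

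Genomic span, measured from start to end with introns, was not used in choosing the genes. Of the 12 tested pathway genes spanning over 100 kb, 6 fell, 3 rose and 2 (BMPR2 and BMPR1B) were called lower, a share of 16.7% called lower. Among all protein-coding genes tested over 100 kb, 56.5% fell, 14.6% rose and 16.8% were called lower. At or under 100 kb, 15 of 40 pathway genes fell (37.5%), 13 rose (32.5%) and 2 were called lower (5.0%). Those 2 were INHBB and BMP3, both with a mean under 1 CPM. Of protein-coding genes at or under 100 kb, 24.2% fell, 31.6% rose and 1.86% were called lower. Of protein-coding genes over 100 kb with a mean of at least 1 CPM, 63.9% fell, 16.1% rose and 16.8% were called lower. At this limit the 12 long pathway genes thus fell no more often than other long genes, a difference that was not tested. The 6 that fell were BMPR1B (400 kb), BMPER (252 kb), BMPR2 (191 kb), BMPR1A (176 kb), ACVR1 (140 kb) and SMAD2 (122 kb), and TGFBR3 (226 kb), BMP2K and ACVR1C rose. BMP4, FST and NOG, which fell too, span only 9.03, 6.51 and 1.91 kb.

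**Figure D4:**
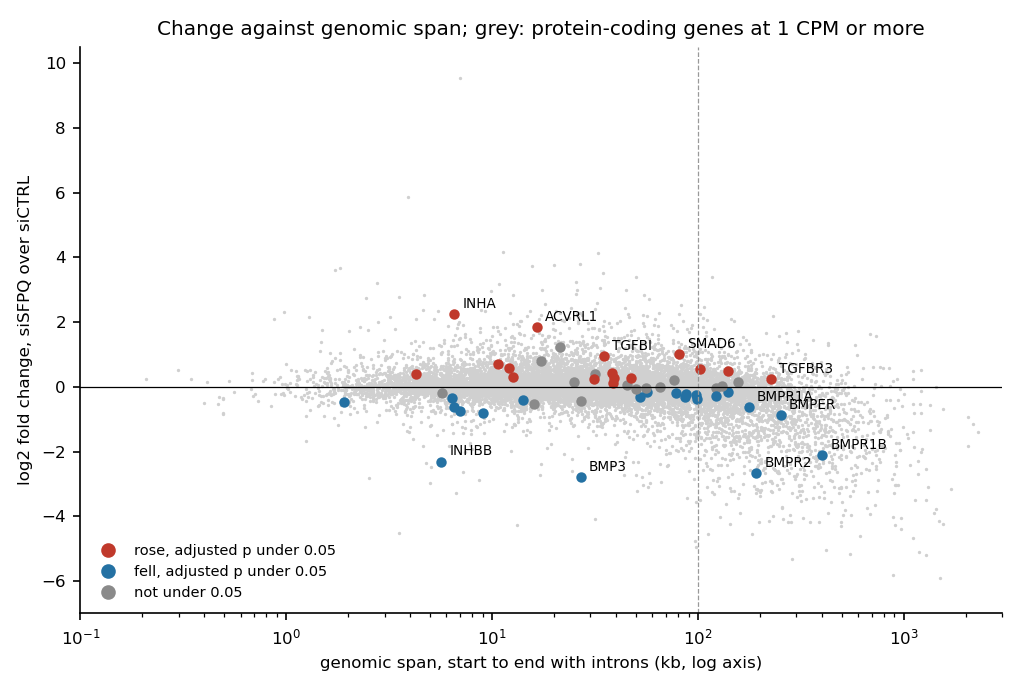
Log2 fold change (y axis, siSFPQ over siCTRL) against genomic span in kb (x axis, log) for the 52 tested pathway genes (coloured points) and for protein-coding genes at a mean of 1 CPM or more (grey), with a dashed line at 100 kb. The grey cloud bends downward at long spans, and BMPR2 and BMPR1B lie within its lower part.

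Several pathway genes lie close together in the genome, and 7 pairs were within 500 kb of each other. Besides INHBC and INHBE, and SMAD6 and SMAD3, the type I receptors ACVRL1 and ACVR1B lie 28.3 kb apart on chromosome 12 (log2 fold changes 1.84 and 0.05). ACVR1C and ACVR1 lie 107 kb apart on chromosome 2 (0.54 and -0.16), and TGFBI and SMAD5 lie 69.0 kb apart on chromosome 5 (0.96 and -0.03). The BMP8A and BMP8B pair had near-equal values, and GDF10 and GDF2 were not tested. The difference within a pair was not tested.

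Genes outside the definition that control ligand supply moved in both directions. Of 36 extracellular regulators, 33 were tested, of which 8 rose (24.2%) and 15 fell (45.5%), where 31.3% and 36.5% of the protein-coding genes averaging 1 CPM or more did, with a median log2 fold change of -0.41. FSTL1, a follistatin-like glycoprotein that binds TGF-beta family ligands, fell from 30608, 32006 and 30368 counts to 3709, 4246 and 3846 (log2 fold change -2.98, SE 0.04, adjusted p = 8.51e-33). THBS1 (thrombospondin-1), an activator of latent TGF-beta, fell from 43193, 43144 and 42300 counts to 10936, 12539 and 11470 (log2 fold change -1.89, SE 0.04, adjusted p = 8.46e-29). LRRC32, which holds latent TGF-beta at the cell surface, had 509, 544 and 444 counts in siCTRL and 18, 34 and 25 in siSFPQ (log2 fold change -4.28, SE 0.16, adjusted p = 1.29e-21).

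SOST, the sclerostin gene of osteocytes, was called higher at low counts (7, 1 and 7 against 22, 22 and 25, log2 fold change 2.17). For SOST the summed counts gave a ratio of 4.58 (95% exact interval 2.6 to 8.63). The largest rises at 1 CPM or more were TLL2, a BMP1-like protease (0.88), LTBP3, a latent TGF-beta binding protein (3132, 3508 and 3044 against 6019, 5895 and 5860 counts, 0.87), and the antagonist NBL1 (0.65). LTBP1, by contrast, had a log2 fold change of -1.04, a gene mentioned for its kinship to LTBP3 after its value was seen.

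Of the 16 other ligands, receptors and coreceptors of the family, 13 were tested, with a median log2 fold change of -0.19. Of these, 6 rose (46.2%) and 5 fell (38.5%), where 31.3% and 36.5% of the protein-coding genes averaging 1 CPM or more did. AMHR2, the type II receptor for anti-Müllerian hormone, was at 0 in all siCTRL libraries and had 12, 10 and 12 counts in siSFPQ, at least 3.77-fold higher against a floor of 3 counts per library (adjusted p = 0.000124). MSTN (myostatin) had 11, 12 and 9 counts in siCTRL and 0, 2 and 2 in siSFPQ, a ratio of 8.0 (95% exact interval 2.85 to 31.2). NEO1, a receptor for the BMP coreceptors of the RGM family, fell from 5062, 5539 and 4850 counts to 2529, 2832 and 2599 (log2 fold change -0.96). BAMBI, a decoy receptor, fell (-0.46), as did the GDNF-type ligand NRTN (-0.88), while PSPN (0.91), the stress-responsive GDF15 (0.61) and AMH (0.53) rose.

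All 40 intracellular regulators on the list were tested, of which 7 rose (17.5%) and 18 fell (45.0%), where 31.3% and 36.5% of the protein-coding genes averaging 1 CPM or more did, with a median log2 fold change of -0.06. LDLRAD4, which keeps SMAD2 and SMAD3 from the receptor, fell from 4056, 4420 and 4010 counts to 647, 740 and 653 (log2 fold change -2.62, SE 0.05, adjusted p = 1.96e-28). HIPK2, a kinase that modulates SMAD-dependent transcription, fell from 3730, 4145 and 3356 counts to 1157, 1337 and 1124 (log2 fold change -1.64), and the phosphatase CTDSPL fell by 1.41. All 3 span over 100 kb. PDZK1IP1, an inhibitor of SMAD4, had 0, 0 and 1 counts in siCTRL and 8, 5 and 3 in siSFPQ, a ratio of 15.9 (95% exact interval 2.48 to 669), and its adjusted p of 0.0258 became 0.0637 without siCTRL replicate 2. The rises at higher levels were small, 0.41 for the ubiquitin ligase NEDD4L, 0.25 for FKBP1A, which binds type I receptors, and 0.18 for the ubiquitin ligase SMURF1.

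Among genes known to respond to BMPs, 9 of the 17 tested rose (52.9%), 2 fell (11.8%) and 6 did neither. Of the protein-coding genes averaging 1 CPM or more, 31.3% rose and 36.5% fell. The share that rose in this list was not tested against other genes, and their median log2 fold change was 0.57, against 0.02 over all genes tested. HEY1, a transcriptional repressor, had 102, 128 and 122 counts in siCTRL and 597, 571 and 624 in siSFPQ (log2 fold change 2.34, SE 0.11, adjusted p = 7.28e-19). DLX3, a homeobox gene of bone, tooth and skin, had 20, 39 and 18 counts in siCTRL and 107, 126 and 99 in siSFPQ (log2 fold change 2.10, SE 0.24, adjusted p = 7.63e-09). MSX2, a homeobox gene of skull and limb, rose from 317, 330 and 328 counts to 845, 710 and 788 (log2 fold change 1.26, SE 0.09, adjusted p = 3.93e-14).

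The ID genes, inhibitors of basic helix-loop-helix factors and textbook BMP targets, were not uniform. ID1 had 6247, 5799 and 5690 counts in siCTRL and 9003, 7828 and 8536 in siSFPQ (log2 fold change 0.51), ID3 rose by 0.57 and ID4 by 0.64, 3 genes named for their family after their values were seen. ID2 fell from 675, 715 and 656 counts to 456, 399 and 393 (log2 fold change -0.72, SE 0.09, adjusted p = 1.22e-08). UNC5B, a netrin receptor, fell from 2714, 2982 and 2737 counts to 1179, 1303 and 1281 (log2 fold change -1.17).

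Genes known to respond to TGF-beta were mixed. Of 41 tested, 13 rose (31.7%), 20 fell (48.8%) and 8 did neither, against the same 31.3% and 36.5%, with a median log2 fold change of -0.24. The contractile genes ACTA2 (120, 123 and 106 against 341, 336 and 345 counts, log2 fold change 1.54) and CNN1 (593, 698 and 621 against 1734, 1763 and 1691, 1.44) and the protease ADAM19 (1.09) rose the most. ACTA2 is also in a gene signature that the study chose on these libraries, so its rise is not independent of that choice, and without siCTRL replicate 3 its log2 fold change was 1.48. It shares 1638 exon bases with ACTA2-AS1 and 387 with FAS on the opposite strand, and 401 with ENSG00000286116 on the same strand. The part of these shared bases in its rise was not tested. TIMP3, an inhibitor of matrix proteases, fell from 4332, 4535 and 4301 counts to 1381, 1332 and 1442 (log2 fold change -1.67), the chromatin protein HMGA2 fell by 1.43 and the cadherin CDH2 by 1.08.

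**Figure D5:**
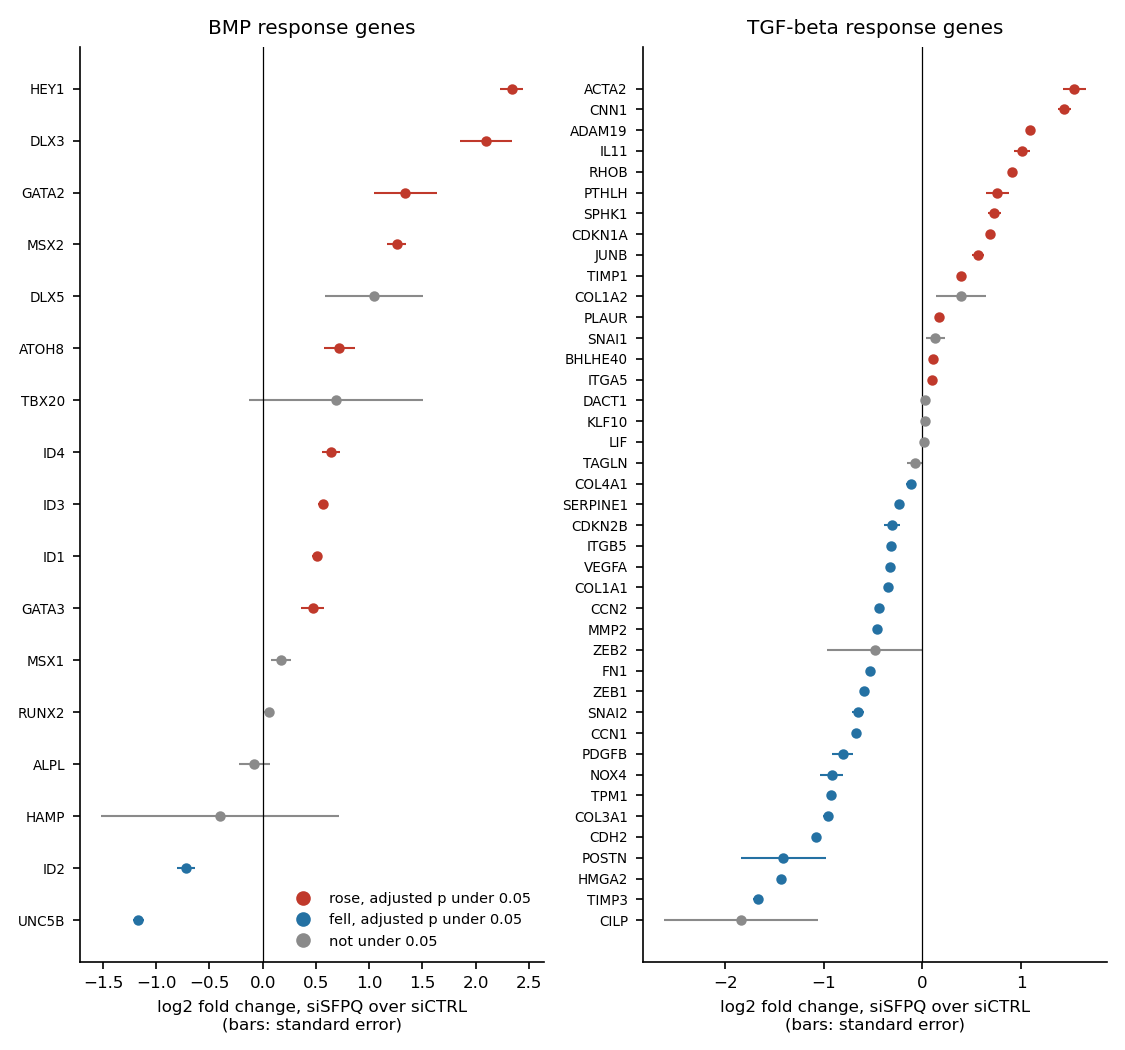
Log2 fold change (siSFPQ over siCTRL, x axes) with its standard error for 17 tested BMP response genes (left) and 41 tested TGF-beta response genes (right), ordered by value. On the left 9 genes rose and 2 fell, and on the right 13 rose and 20 fell.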

How the data were processed

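Reads were aligned by the authors with STAR (version 2.7.9a in the submitters' processing notes) to GRCh38 after quality control in FastQC, and unnormalized read counts per Ensembl gene were deposited. The paper names a stranded mRNA library, but the strand setting of the counting is not given in the sources used here. The table has 6 columns of counts, all used, with 0 unused. The 3 libraries per condition are described as biological replicates. Counts were tested with edgeR 4.0.16 (TMM, quasi-likelihood, no covariates) in genes with at least 10 counts over the libraries, with p-values adjusted by Benjamini-Hochberg for 29022 genes. The thresholds for a call were 0.05 for the adjusted p and 1.5 for the size of the log2 fold change, after the study's methods. Standard errors came from the log2 fold change and its F statistic. The scripts were tested on simulated data. Alternatives included DESeq2 1.42.0. Symbols, spans and exon lengths came from GENCODE 44 (60463 of 60664 IDs matched), and promoters from RefSeq. Exact count ratio intervals and floors of 3 counts cover counting error only. At these depths 3 counts were 0.0637 to 0.069 CPM. Every pair of libraries differed by more than sampling noise (lowest chi-square over its degrees of freedom 3.77).

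Genes with values in every library were those past both thresholds, those with an adjusted p under 0.05, a log2 fold change of at least 0.5 in size and a mean of at least 1 CPM, and a fixed core chain of ligands, receptors and SMADs. From each of 5 lists of other pathway genes, called genes (at most 6, those with the highest mean) and up to 3 rises and 3 falls at 1 CPM or more were named. The genes, lists and rules were chosen with earlier results of these data known. CRIPTO was matched as TDGF1. Values of a few single genes are not reported here.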

Additional observations from a re-analysis of the deposited data

How the results depend on the processing

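With a log2 threshold of 0.5 in place of 1.5, 7 pathway genes were called higher and 9 lower. The matching share of all genes is not given here, so these 2 counts are not read against other genes. Leaving out each library in turn gave 1 to 2 called higher (1 without siCTRL replicate 2) and 3 to 4 called lower, 12 to 15 that rose and 17 to 20 that fell (12 and 17 without siSFPQ replicate 1). The same fits gave 1203 to 1686 of all genes called higher and 1175 to 1357 called lower. In them, 5492 to 6411 of all genes rose and 5403 to 6254 fell. Over all genes, 967 were called higher with filterByExpr and 581 with protein-coding genes only, which also gave 830 called lower, since fewer genes were tested. Of the intracellular regulators, 11 rose with library size alone, and the cause was not tested. With limits of 50 kb and 200 kb, 24 and 3 pathway genes were over the limit, of which 13 (54.2%) and 2 (66.7%) fell. Among all protein-coding genes tested, 46.3% of those over 50 kb and 68.1% of those over 200 kb fell. Among 879 values of single genes under the alternatives, 851 kept their direction and side of the adjusted p threshold, 26 lost significance, 2 gained it and 0 reversed. ACVRL1 without siCTRL replicate 2 (1.34) and ACTA2 without siCTRL replicate 3 (1.48) kept their significance but not a log2 fold change past 1.5.

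The replicate numbers did not pair the libraries: correlations of same-numbered deviations were -0.03, 0.07 and 0.04. With the replicate number as a block, 17 pathway genes rose, 20 fell, 2 were called higher and 3 lower, with adjusted p of 0.053 for BMP3 and 0.0641 for PDZK1IP1. The shares of all genes in the block fit are not given here, so these counts are not read against other genes. Pathway genes with counts under about 10 per library are limited by depth.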

Other observations

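A few non-coding genes that overlap the pathway genes moved more than their hosts. They were picked after their values were seen. ENSG00000177725, a non-coding RNA gene on the same strand as BMP1, had 9, 5 and 5 counts in siCTRL and 153, 163 and 138 in siSFPQ, a log2 fold change of 4.55 (SE 0.27, adjusted p = 5.44e-16 in edgeR), beside 0.26 for BMP1. INHBA-AS1, antisense to INHBA, had 33, 13 and 19 counts in siCTRL and 70, 71 and 52 in siSFPQ, a log2 fold change of 1.56 beside 0.12 for INHBA. ENSG00000287156, antisense to BMP4, had 151, 144 and 131 counts in siCTRL and 71, 66 and 51 in siSFPQ, a log2 fold change of -1.18 beside -0.81 for BMP4. Where such genes share exon bases with their hosts on the opposite strand, reads of the pair cannot be told apart without strand. ENSG00000177725 shares 461 exon bases with BMP1 on the same strand, and there strand cannot separate the reads either.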
